A study of Sus scrofa with 18 samples.

Results

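Sphingosine-1-phosphate (S1P) is a lipid messenger that circulates in blood. Sphingosine kinases make it inside cells, the transporter SPNS2 carries it out of endothelial cells, a family of G protein-coupled receptors reads it on endothelium, vascular smooth muscle, heart muscle and immune cells, and S1P lyase removes it irreversibly. The gradient of S1P between blood and tissue keeps the endothelial barrier tight and guides lymphocytes out of lymphoid organs.

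Transcripts of 9 genes of this system were followed in serum: the receptors S1PR1, S1PR2, S1PR3, S1PR4 and S1PR5, the kinases SPHK1 and SPHK2, the lyase SGPL1 and the transporter SPNS2. They are the genes of that name among 31908 genes in the deposited counts. All 9 have a gene entry and passed the filter of 5 reads in total, as did 26146 genes in all. The set was chosen by the low level of S1PR3 in cardiogenic shock in these same libraries, so for these 9 genes every value of CS vs. Baseline, and every value of S1PR3, is a description from which nothing is read, calls included. In the files S1PR3 is ENSSSCG00000009580, S1PR1 is ENSSSCG00000029849, S1PR2 is ENSSSCG00000013658, S1PR4 is ENSSSCG00000013474 and S1PR5 is ENSSSCG00000028460. SPHK1 is ENSSSCG00000017178, SPHK2 is ENSSSCG00000030425, SGPL1 is ENSSSCG00000010274 and SPNS2 is ENSSSCG00000017879.

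Serum RNA came from 6 female Danish Landrace pigs aged 5 months, all anesthetized and each bled at 3 time points. Baseline is the untreated state, CS is cardiogenic shock after microspheres had been injected into the left main coronary artery, and pVAD is support by the Impella CP percutaneous ventricular assist device while the shock persisted. The order of time points was the same in every pig and no pig went without shock or without the pump, so time under anesthesia, repeated bleeding and treatment cannot be told apart. Replicates 1 to 6 are pigs 3, 10, 12, 8, 4 and 6, and 17 of 18 libraries were used (6 Baseline, 5 CS, 6 pVAD).

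The 17 libraries hold 18229243 to 71488943 counts, of which 911 to 4277 fall on the 9 S1P genes. CS replicate 6, left out by the study, holds 2484066 counts and has a read for 2891 genes, and all 9 S1P genes are at 0 reads there, which allows up to 1.21 CPM without TMM scaling. Levels are CPM, counts per 1000000 counts of a library, scaled in the 17 libraries with the TMM factor of each. These factors are 0.307 in CS replicate 4 and 0.454 in pVAD replicate 6, against 0.8291 to 1.55 elsewhere, and in CS replicate 4 the 4 most abundant transcripts take 71.5% of the counts, against 24.2 to 57.6% in the other 16 libraries. CS replicate 1 has the fewest genes with a read, 22019 against up to 25830. Cells of a type and RNA per cell cannot be told apart in such bulk serum RNA, and since exon lengths were not at hand, levels are compared between time points and not between genes.

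S1PR3, a receptor that couples to several G protein classes and acts in vascular smooth muscle, endothelium and the heart, was lower in CS than at either other time point. Its 5 CS libraries held 3.15, 3.92, 3.86, 5.28 and 4.84 CPM in replicates 1 to 5. The 6 Baseline libraries held 6.09, 8.18, 5.79, 8.25, 8.60 and 7.11 CPM in replicates 1 to 6. In scaled CPM no CS library reached the lowest Baseline library, and the level was lower in CS in 5 of 5 pigs. Before TMM scaling the groups overlap. CS replicate 5 holds 265 reads of 41306973 counts, against 242 of 40868806 in Baseline replicate 1.

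The mean of S1PR3 was 4.21 ± 0.848 CPM in CS (SD, n = 5) and 7.34 ± 1.20 CPM at Baseline (SD, n = 6), a fitted log2 fold change of -0.80 (SE 0.26). Reads behind these values range from 116 to 265 per library in CS and from 130 to 371 at Baseline. Among all genes, 0.122% lie in CS wholly below Baseline. S1PR3 was selected on this very contrast, and nothing is read from its place in that share.

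On pVAD, S1PR3 had 6.67, 6.68, 8.83, 5.87, 6.06 and 5.71 CPM in replicates 1 to 6, against the CS values above. In scaled CPM every pVAD library lay above every CS library, and the level was higher on pVAD in 5 of 5 pigs. Before TMM scaling the groups overlap and pig 4 goes the other way. Its CS replicate 5 holds 265 reads of 41306973 counts, and its pVAD replicate 5 holds 279 of 49509596. The mean was 6.64 ± 1.15 CPM on pVAD (SD, n = 6), log2 0.66 (SE 0.25) over CS. In this comparison 0.164% of all genes lie wholly above CS. Without CS replicate 1 the change is 0.57, without pVAD replicate 3 it is 0.56, and in both fits it misses the threshold for a call, which asks for an unadjusted edgeR p under 0.05 together with a fold change that exceeds 1.5. Because the CS libraries that chose the gene also serve as the comparator here, this difference is no second observation of its low level in CS.

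Against Baseline, the pVAD level of S1PR3 was lower in 4 of 6 pigs and higher in 2, with a log2 fold change of -0.14 (SE 0.24) and overlapping groups. The interval of 2 SE on each side of that change runs from -0.62 to 0.34, so the data leave room for a moderate difference either way. Pig 12 stands out on pVAD with 8.83 CPM, against 5.79 CPM at its own Baseline.

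**Figure D1:**
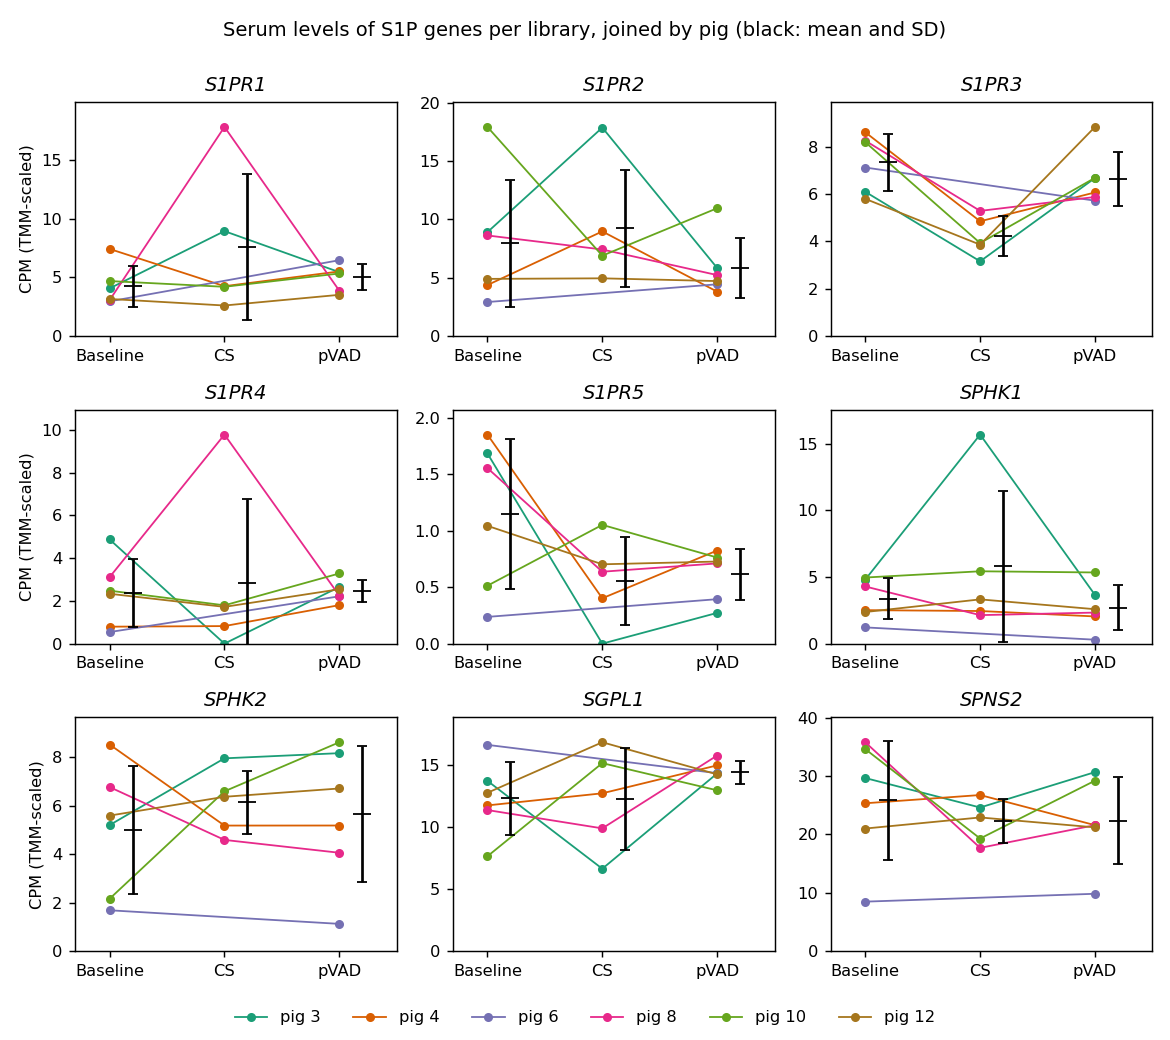
Level of each of the 9 S1P genes in CPM scaled by TMM factors (y axis, a scale of its own in each panel) at Baseline, CS and pVAD, 1 point per library and 1 colored line per pig, with the mean and SD in black (SD bars are cut at 0). In scaled CPM S1PR3 lies lower in CS than at both other time points in all 5 pigs. Single libraries of pigs 3 and 8 hold the highest CS values of S1PR1, S1PR2, S1PR4 and SPHK1. Pig 6 has no CS point.

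S1PR1, the receptor that holds endothelial junctions together and lets lymphocytes leave lymph nodes, had a wide spread in CS. Its CS libraries held 8.93, 4.19, 2.59, 17.8 and 4.24 CPM in replicates 1 to 5, against a lowest level of 2.95, a median of 3.6 and a highest level of 7.41 CPM at Baseline. Replicates 1 and 4 lie above all Baseline libraries, replicate 4 only after scaling by its TMM factor of 0.307. The other 3 CS libraries lie among or below them. CS averaged 7.55 ± 6.20 CPM (SD, n = 5) and Baseline 4.21 ± 1.71 CPM (SD, n = 6), log2 0.84 (SE 0.41), and CS was higher in only 2 of 5 pigs. Without CS replicate 4 the log2 change is 0.25, and without CS replicates 1 and 4, an alternative chosen after seeing the data, it is -0.19.

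On pVAD, S1PR1 ranged from 3.50 to 6.45 CPM around a median of 5.38 CPM, inside the range of CS. The fitted change was -0.59 (SE 0.41) for pVAD vs. CS and 0.26 (SE 0.39) for pVAD vs. Baseline, with an edgeR p of 0.164 (adjusted p = 0.999) and 0.523 (adjusted p = 1). Without CS replicate 4 the pVAD vs. CS change of S1PR1 is 0.0050. The pVAD vs. Baseline change is 0.49 without Baseline replicate 5 and 0.17 without pVAD replicate 6. S1PR1 was higher on pVAD than at Baseline in 5 of 6 pigs, a difference within the spread of the libraries.

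S1PR2, which couples strongly to G12/13 and loosens endothelial junctions, varied widely among the pigs. CS libraries held 17.9, 6.89, 4.95, 7.42 and 8.97 CPM in replicates 1 to 5, against a lowest level of 2.91, a median of 6.76 and a highest level of 17.9 CPM at Baseline. All CS libraries lie within the Baseline range, with a log2 change of 0.21 (SE 0.42) that turns to -0.17 without CS replicate 1 and is 0.63 without Baseline replicate 2. On pVAD the lowest level was 3.801, the median 4.97 and the highest 10.96 CPM. The level was lower on pVAD than in CS in 4 of 5 pigs, log2 -0.66 (SE 0.42, edgeR adjusted p = 0.999). Without CS replicate 1 that change is -0.27, and without pVAD replicate 2, the highest pVAD library, it is -0.94 and passes the threshold for a call before adjustment. S1PR2 was lower on pVAD than at Baseline in 5 of 6 pigs, log2 -0.45 (SE 0.40, edgeR adjusted p = 1). That change is -0.03 without Baseline replicate 2, the highest Baseline library.

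S1PR4 is a receptor of lymphocytes and other leukocytes. Its CS libraries held 0, 1.79, 1.72, 9.79 and 0.822 CPM in replicates 1 to 5, against a lowest level of 0.542, a median of 2.41 and a highest level of 4.88 CPM at Baseline. The absence of reads in CS replicate 1 allows up to 0.0722 CPM by counting error, while CS replicate 4 lies above all 16 other libraries. That rank rests on its TMM factor of 0.307. Before scaling it holds 215 reads of 71488943 counts, against 194 of 40868806 in Baseline replicate 1. The log2 change for CS vs. Baseline is 0.24 (SE 0.78), and it is -1.13 without CS replicate 4 and -0.31 in the fit blocked by pig. On pVAD the level was steadier, 2.46 ± 0.503 CPM (SD, n = 6), log2 -0.18 (SE 0.78) over CS and 0.05 (SE 0.75) over Baseline, with edgeR adjusted p of 0.999 and 1. The pVAD vs. CS change of S1PR4 is 1.18 without CS replicate 4 and 0.65 in the fit blocked by pig, so no direction is given for it. Nor is one given for pVAD vs. Baseline, where the change is -0.15 without Baseline replicate 6 and 0.40 without Baseline replicate 1.

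S1PR5, a receptor of natural killer cells, oligodendrocytes and brain endothelium, had the fewest reads of the set, 0 to 70 per library. CS libraries held 0, 1.05, 0.703, 0.637 and 0.402 CPM in replicates 1 to 5, against a lowest level of 0.237, a median of 1.30 and a highest level of 1.85 CPM at Baseline. The level was lower in CS in 4 of 5 pigs, but the groups overlap and the log2 change of -1.03 has an SE of 0.82. On pVAD S1PR5 ranged from 0.273 to 0.825 CPM, log2 0.14 (SE 0.81) over CS and -0.89 (SE 0.77) over Baseline, with edgeR adjusted p of 0.999 and 1. Leaving out 1 library moves the pVAD vs. CS change between -0.18 (without CS replicate 1) and 0.51 (without CS replicate 2), and the CS vs. Baseline change between -1.40 (without CS replicate 2) and -0.71 (without CS replicate 1). A difference of this size in S1PR5 was not detectable at this depth and spread.

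Both CS libraries with extreme values of S1P genes also stand apart in some marker lists. In CS replicate 4 the summed level of the 9 measured T and NK cell markers of 10 listed was 578 CPM, against 84.1 to 115 CPM in the other CS libraries and up to 214 CPM elsewhere. CD3E, a chain of the T cell receptor complex, stood at 408 CPM there and CD3D at 50.7 CPM, against at most 134 and 9.21 CPM in other libraries, and 5 of the 9 markers, all of T cells or shared by T and NK cells, were highest in that library. The other 4 were not: NKG7 stood at 2.37 CPM there, against a median of 1.54 CPM in the other libraries, while CD8A (7.88 against 10.5 CPM), KLRK1 (0.273 against 1.08 CPM) and NCR1 (0.137 against 0.262 CPM) lay below that median. CD3E alone makes up most of the sum. B cell markers also ranked second of the 17 libraries there, at 193 CPM. The sums for endothelium (357 CPM), heart muscle (223 CPM) and liver (74.0 CPM) were the lowest of the 17. All these values are scaled CPM, raised by the library's TMM factor of 0.307. Whether its high ranks hold before scaling was not tested. The part of these markers in the S1PR1 and S1PR4 levels of that library was not tested.

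In CS replicate 1 the 5 measured monocyte and neutrophil markers of 10 listed summed to 141 CPM, against at most 79.2 CPM elsewhere, with CSF1R at 80.3 CPM, MPO at 38.8 CPM and S100A8 at 8.54 CPM highest there. CD14, at 2.89 CPM against up to 6.92 CPM elsewhere, and CSF3R, at 10.4 against up to 14.7 CPM, were not. The library was not high in these markers alone, since its endothelial sum (598 CPM) and B cell sum (195 CPM) also ranked first of the 17 libraries, and its platelet sum (116 CPM) and liver sum (104 CPM) second. This is the library in which S1PR2 and SPHK1 were highest in CS and in which S1PR4 and S1PR5 had no read. The part of the markers in those values was not tested either. Summed over groups, T and NK markers ranged over 85.3 to 128 CPM at Baseline, 84.1 to 578 CPM in CS and 88.5 to 214 CPM on pVAD. Monocyte and neutrophil markers ranged over 19.4 to 79.2 CPM at Baseline, 43.7 to 141 CPM in CS and 25.6 to 75.3 CPM on pVAD.

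Summed markers of the cell types that carry S1PR3 had ranges that overlap between the time points. The 9 measured endothelial markers of 10 listed summed to 404 to 557 CPM at Baseline, 357 to 598 CPM in CS and 392 to 572 CPM on pVAD. For CS vs. Baseline 4 of these 9 lay above and 5 below, with a median log2 change of -0.16. KDR, the main receptor of vascular endothelial growth factor, was called lower in CS, with 12.6 ± 3.80 CPM in CS (SD, n = 5) and 19.4 ± 3.49 CPM at Baseline (SD, n = 6), log2 -0.62 (SE 0.22, edgeR adjusted p = 1), and was lower in 5 of 5 pigs. Among all genes 2.82% were called in this comparison. The 9 measured smooth muscle and pericyte markers of 10 listed summed to 185 to 313 CPM at Baseline, 240 to 326 CPM in CS and 189 to 345 CPM on pVAD. For CS vs. Baseline 6 of these lay above and 3 below, with a median log2 change of 0.13. The 9 measured heart muscle markers of 10 listed summed to 237 to 299 CPM at Baseline. Their sums were 223 to 274 CPM in CS and 224 to 294 CPM on pVAD. For CS vs. Baseline 6 heart muscle markers lay above and 3 below, with a median log2 change of 0.05. Red cells and platelets are the main sources of S1P in blood. The 5 measured red cell markers of 10 listed summed to 287 to 845 CPM at Baseline, 345 to 779 CPM in CS and 184 to 775 CPM on pVAD. The 7 measured platelet markers of 10 listed summed to 68.1 to 94.7 CPM at Baseline, 59.9 to 116 CPM in CS and 51.6 to 206 CPM on pVAD. The highest sum was in pVAD replicate 6, whose TMM factor of 0.454 raises its scaled levels.

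Of all the marker lists, with 88 genes listed, 4 further genes passed the threshold for a call before adjustment. Among all genes 2.82% were called for CS vs. Baseline, 2.43% for pVAD vs. CS and 0.834% for pVAD vs. Baseline. With calls at such shares among all genes, nothing particular to these markers is read from single calls. GP6, a collagen receptor of platelets, held 7.24 to 9.61 CPM on pVAD, wholly above its 4.09 to 6.93 CPM in CS, and was higher in 5 of 5 pigs, log2 0.66 (SE 0.27, edgeR adjusted p = 0.999). In this comparison 0.164% of all genes lie wholly above CS. Of the 7 measured platelet markers, 4 lay above CS and 3 below. GP9, another platelet glycoprotein, was lower on pVAD than at Baseline in 4 of 6 pigs, log2 -1.29 (SE 0.58, edgeR adjusted p = 1). Platelet markers as a list went the other way there, with 5 above Baseline, 2 below and a median of 0.29. CD8A, of cytotoxic T cells, was lower in CS than at Baseline in 5 of 5 pigs, log2 -0.61 (SE 0.24, edgeR adjusted p = 1). Of the 9 measured T and NK cell markers, 6 lay above Baseline and 3 below, with a median of 0.43. CD3D, which is high in CS replicate 4, had log2 1.74 (SE 0.60) for CS vs. Baseline and -1.42 (SE 0.59) for pVAD vs. CS, with edgeR adjusted p of 1 and 0.999. For pVAD vs. CS 3 of these 9 markers lay above and 6 below, with a median of -0.10. The part of KDR, GP6, GP9, CD8A and CD3D in the levels of S1PR3 and the other S1P genes was not tested. All measured markers of these lists, and of heart muscle, liver and B cells, had reads at each time point.

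The read share of S1PR3 among the 5 receptors was lower in CS on average. It uses the S1PR3 reads of the libraries that chose the set, so it is no second observation of the low level. S1PR3 took 10.5, 21.98, 27.9, 12.9 and 25.1% of the receptor reads in CS replicates 1 to 5, with a mean of 19.7 ± 7.62% (SD, n = 5). At Baseline the share ranged from 23.8 to 51.7% with a mean of 34.0 ± 10.3% (SD, n = 6), and on pVAD from 24.7 to 43.4% with a mean of 32.7 ± 6.15% (SD, n = 6). Within pigs the share was lower in CS than at Baseline in 5 of 5 and higher on pVAD than in CS in 5 of 5. Across pigs, unlike the scaled CPM, the shares overlap. CS replicate 3, at 27.9% (95% Wilson interval 24.4 to 31.7%), lies above Baseline replicate 1, at 23.8% (21.3 to 26.5%). The lowest shares in CS belong to replicate 1, which holds the most S1PR2 of that time point, and replicate 4, which holds the most S1PR1. These intervals cover counting error only.

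**Figure D2:**
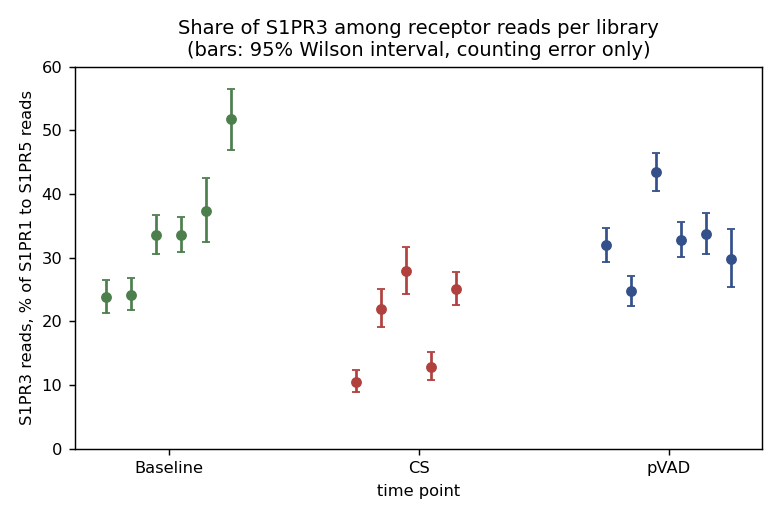
Reads of S1PR3 as a percentage of the reads of all 5 S1P receptors (y axis) in each library at Baseline, CS and pVAD, replicates from left to right, with the 95% Wilson interval of counting error. CS shares run from 10.5 to 27.9% and overlap the lower Baseline and pVAD shares of other pigs, which start at 23.8 and 24.7%, while in each of the 5 pigs the CS share is below its Baseline share.

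SPHK1, the kinase that is induced by growth factors and inflammatory signals, was high in a single CS library. CS libraries held 15.7, 5.43, 3.32, 2.14 and 2.45 CPM in replicates 1 to 5, against a lowest level of 1.22, a median of 3.40 and a highest level of 4.96 CPM at Baseline. Replicate 1 lies far above all others, replicate 2 just above Baseline, and the remaining 3 CS libraries within the Baseline range. The log2 change for CS vs. Baseline is 0.79 (SE 0.57), and -0.01 without CS replicate 1.

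On pVAD SPHK1 ranged from 0.295 to 5.34 CPM around a median of 2.46 CPM, with the lowest level in pig 6. The level was lower on pVAD than in CS in 4 of 5 pigs, log2 -1.09 (SE 0.57, edgeR adjusted p = 0.999), which missed the threshold for a call, and -0.29 without CS replicate 1. With DESeq2 the change is -1.12 and passes that threshold before adjustment, as it does in edgeR without pVAD replicate 2, CS replicate 4 or CS replicate 5 (-1.40, -1.30 and -1.29). Blocked by pig, it is -0.69. Against Baseline the change was -0.31 (SE 0.54, edgeR adjusted p = 1), between -0.61 without pVAD replicate 2 and -0.08 without pVAD replicate 6.

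SPHK2, the kinase found in the nucleus and mitochondria, held 7.96, 6.60, 6.38, 4.60 and 5.19 CPM in CS replicates 1 to 5, against a lowest level of 1.69, a median of 5.40 and a highest level of 8.54 CPM at Baseline. All CS libraries lie within the Baseline range, log2 0.30 (SE 0.44). On pVAD the lowest level was 1.13, the median 5.96 and the highest 8.63 CPM, log2 -0.12 (SE 0.43) over CS and 0.19 (SE 0.42) over Baseline, with edgeR adjusted p of 0.999 and 1. Leaving out each library in turn gives 0.12 to 0.52 for CS vs. Baseline, -0.28 to 0.09 for pVAD vs. CS and 0.0081 to 0.40 for pVAD vs. Baseline, the low end of the first and last without Baseline replicate 6. Both the Baseline and the pVAD minimum belong to pig 6. The Baseline and pVAD libraries of pig 6, in which SPHK1 and SPNS2 are low too, also rank 17 and 16 of the 17 libraries in the sums of smooth muscle (185 and 189 CPM), B cell (108 and 112 CPM) and monocyte and neutrophil markers (19.4 and 25.6 CPM), 15 and 16 in endothelial markers, and 1 and 2 in heart muscle markers (299 and 294 CPM). The library pVAD replicate 6 has a TMM factor of 0.454, which raises its scaled sums, and its ranks before scaling were not tested. The part of these markers in the values of pig 6 was not tested.

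SGPL1, the lyase that splits S1P in the endoplasmic reticulum, differed little in mean between time points. CS libraries held 6.67, 15.2, 16.9, 9.92 and 12.8 CPM in replicates 1 to 5, against a lowest level of 7.67, a median of 12.3 and a highest level of 16.7 CPM at Baseline, and the groups overlap throughout. The log2 change was -0.01 (SE 0.24) for CS vs. Baseline. On pVAD all 6 libraries lay between 13.0 and 15.8 CPM, with a coefficient of variation of 6.41%, against 33.3% in CS and 24.0% at Baseline. The mean on pVAD, 14.5 ± 0.928 CPM (SD, n = 6), gives log2 0.24 (SE 0.24) over CS and 0.23 (SE 0.23) over Baseline, with edgeR adjusted p of 0.999 and 1. The change over CS is 0.08 without CS replicate 1 and 0.38 without CS replicate 3, and that over Baseline is 0.12 without Baseline replicate 2.

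SPNS2, the transporter that releases S1P from endothelium into lymph and blood, held 24.6, 19.3, 22.9, 17.7 and 26.8 CPM in CS replicates 1 to 5, against a lowest level of 8.50, a median of 27.5 and a highest level of 35.8 CPM at Baseline. The CS libraries lie inside the Baseline range, which is set at its low end by pig 6. On pVAD SPNS2 ranged from 9.85 CPM, again in pig 6, to 30.7 CPM. The log2 change was -0.21 (SE 0.30) for CS vs. Baseline, 0.01 (SE 0.29) for pVAD vs. CS and -0.21 (SE 0.28) for pVAD vs. Baseline, the last 2 with an edgeR adjusted p of 1. The CS vs. Baseline change is -0.40 without Baseline replicate 6 and -0.09 without Baseline replicate 4, the pVAD vs. Baseline change is -0.39 without Baseline replicate 6 and -0.06 without pVAD replicate 6, and the pVAD vs. CS change is 0.16 without pVAD replicate 6 and -0.10 without pVAD replicate 1.

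**Figure D3:**
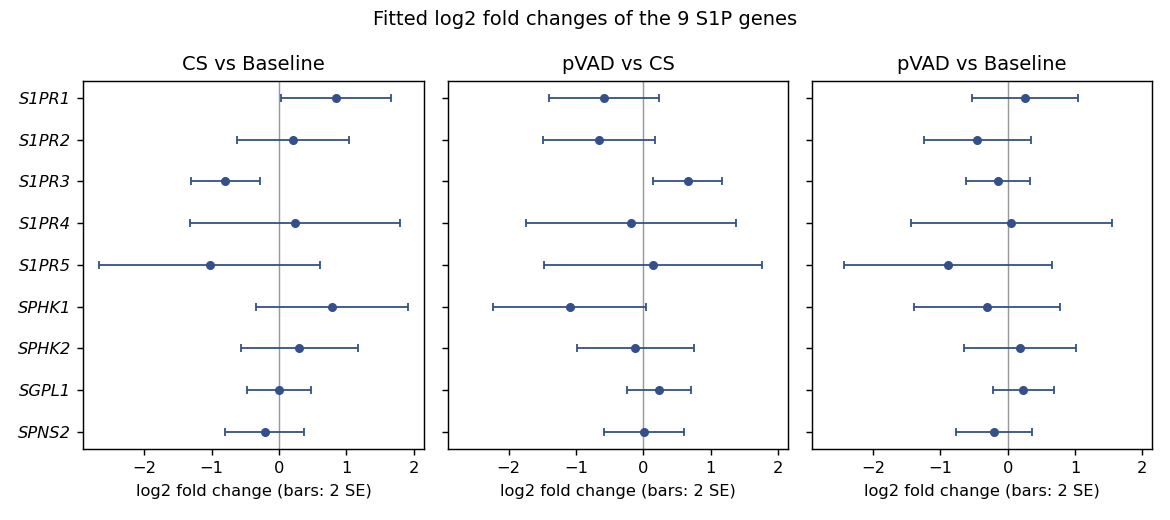
Fitted log2 fold changes of the 9 genes (x axis, the time point named first over the second), 1 panel per comparison, with bars of 2 SE on each side. S1PR3 lies at -0.80 in CS vs. Baseline and 0.66 in pVAD vs. CS. Except for S1PR1 in CS vs. Baseline, the bars of all other genes cross 0 in all 3 comparisons, and those of S1PR4 and S1PR5 are the widest.

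The S1P genes lay on both sides of 0 in each comparison, which for CS vs. Baseline is a description only. In CS 5 lay above Baseline and 4 below, with a median log2 change of 0.21, against a median of -0.0049 over all genes tested. In CS vs. Baseline the threshold for a call, in either direction, takes 1 of the 9 genes, S1PR3, which chose the set, beside 2.82% of all genes, and nothing is read from this count.

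For pVAD vs. CS 4 genes lay above and 5 below, median -0.12 against 0.018 over all genes, and 1 was called, again S1PR3, where 2.43% of all genes were called. For pVAD vs. Baseline 4 lay above and 5 below, median -0.14 against 0.014, and none of the 9 was called or had an unadjusted edgeR p below 0.05, where 0.834% of all genes were called. DESeq2 also called 0 of the 9 there. No gene of the whole table passed an edgeR adjusted p of 0.05 in any comparison, the lowest being 0.999. DESeq2 also passed 0 genes in each comparison, but its lowest adjusted p was 0.0606 for CS vs. Baseline and 0.346 for pVAD vs. CS. Before adjustment 808 genes had p below 0.05 for CS vs. Baseline, 695 for pVAD vs. CS and 228 for pVAD vs. Baseline. The summed level of the 9 genes was 69.5 ± 16.3 CPM at Baseline (SD, n = 6), 70.9 ± 9.16 CPM in CS (SD, n = 5) and 65.7 ± 13.5 CPM on pVAD (SD, n = 6), a range of means smaller than each SD.

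For S1PR2, SPHK1 and SPNS2 the pigs stood in a similar order on pVAD and at Baseline. Over the 6 pigs, the correlation of log2 CPM between both time points was r = 0.892 for S1PR2 (Spearman 0.943), 0.903 for SPHK1 (Spearman 0.8286) and 0.917 for SPNS2 (Spearman 0.771). These are descriptions picked from 9 genes, and the points share animals, depth and serum preparation. Over 24418 genes the median r is 0.4655, and 8.02% of them have an r at or above that of S1PR2, 6.71% that of SPHK1 and 5.08% that of SPNS2.

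Without the 2 pigs farthest from the median at Baseline, r is 0.904 for S1PR2, 0.619 for SPHK1 and 0.864 for SPNS2. For SPNS2 these were pigs 6 and 8, and without pig 6 alone its r is 0.449. The r of SPNS2 thus moves with the choice of pigs. S1PR3 went the other way, with r = -0.692 and a Spearman correlation of -0.486, where r turns to 0.483 without pigs 12 and 3.

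**Figure D4:**
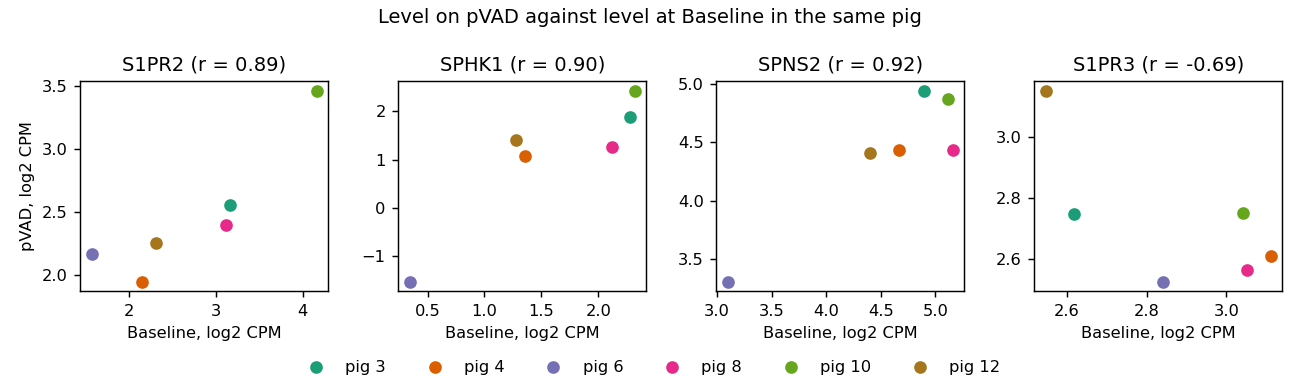
Level on pVAD (y axis, log2 CPM) against the level at Baseline (x axis, log2 CPM) of S1PR2, SPHK1, SPNS2 and S1PR3, 1 point per pig and Pearson r over the 6 pigs in the title, with axes of their own in each panel. S1PR2, SPHK1 and SPNS2 have r of 0.89 to 0.92, with pig 6 far below in SPHK1 and SPNS2, while S1PR3 has -0.69.

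Across the 17 libraries, given as a description since they share pigs, depth and time points, S1PR2 ran opposite to the lyase SGPL1 with r = -0.80 on log2 CPM, -0.72 without CS replicate 1. S1PR2 and SPHK1 had r = 0.71, and SPHK1 and SPNS2 also 0.71. Without pig 6 the correlation of S1PR2 and SPHK1 is 0.77 and that of SPHK1 and SPNS2 0.36. S1PR4 and S1PR5, both receptors of immune cells, had r = 0.72, which is 0.25 without CS replicate 1, where both have no read. These 4 are the largest in size of 36 pairs.

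S1PR3 itself had r = 0.49 with S1PR5 and 0.43 with S1PR4, which are 0.11 and -0.04 without CS replicate 1, and between -0.29 and 0.13 with the other 6 S1P genes. Among 14374 named genes that average 10 reads or more per library, the 5 most alike to S1PR3 were ISG20L2 (r = 0.80), an exonuclease of ribosomal RNA processing, RAB39B (0.79), a small GTPase of vesicle traffic, CPT2 (0.78), the mitochondrial carnitine palmitoyltransferase, GPN1 (0.76), a GTPase needed for nuclear import of RNA polymerase II, and SFTPC (0.76), surfactant protein C of the lung. The median r over all these genes was -0.02. With each gene centered on its time point the r is 0.60 for ISG20L2, 0.51 for RAB39B, 0.60 for CPT2, 0.39 for GPN1 and 0.32 for SFTPC, lower for all 5.

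ISG20L2 averaged 4.88 ± 1.93 CPM at Baseline, 2.27 ± 1.43 CPM in CS and 4.16 ± 1.48 CPM on pVAD. CPT2 averaged 12.0 ± 2.28 CPM at Baseline, 8.53 ± 2.12 CPM in CS and 11.1 ± 1.17 CPM on pVAD (SD, n = 5 in CS and 6 at the other time points, for both genes). Both share the dip of S1PR3 in CS, the feature by which they were found.

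Of 86 listed genes that make, move or read S1P and related lipids, 74 were tested. For CS vs. Baseline 1 was called, 1.35% of them, with 39 above and 35 below and a median log2 change of 0.0071. For pVAD vs. CS 2 were called, 2.70%, with 40 above and 34 below and a median of 0.018, and for pVAD vs. Baseline none (0 with DESeq2, and 0 at an unadjusted edgeR p below 0.05), with 37 above and 37 below and a median of 0.00063. All genes were called at 2.82%, 2.43% and 0.834% in the same order, so these counts are close to the background and say nothing particular to sphingolipid genes.

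SMPD1, the acid sphingomyelinase that turns sphingomyelin into ceramide, was higher in CS in 5 of 5 pigs. It held 8.13, 1.58, 1.99, 5.01 and 3.03 CPM in CS replicates 1 to 5, against 3.799, 0.656, 1.22, 1.11, 2.25 and 0.948 CPM in Baseline replicates 1 to 6. The groups overlap, and pig 3 is highest in both. CS averaged 3.95 ± 2.69 CPM (SD, n = 5) and Baseline 1.66 ± 1.18 CPM (SD, n = 6), log2 1.25 (SE 0.56, edgeR adjusted p = 1). The call is lost in the fit blocked by pig (1.03), without CS replicate 1 (0.80) or 4 (1.15), and without Baseline replicate 2, 3, 4 or 6 (1.08 to 1.17). All 18 libraries (1.04) and the fit without CS replicates 1 and 4 together (0.41) lose it too.

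CERS2, the ceramide synthase for very long acyl chains, was lower on pVAD than in CS in 4 of 5 pigs. On pVAD it held 4.82, 7.76, 4.98, 6.53, 6.04 and 4.14 CPM in replicates 1 to 6, against 18.3, 5.88, 7.93, 11.2 and 7.36 CPM in CS replicates 1 to 5. In scaled CPM, CS replicates 1, 3 and 4 lie above all pVAD libraries, replicate 4 with a TMM factor of 0.307. Replicates 2 and 5 lie within their range. The mean was 5.71 ± 1.33 CPM on pVAD (SD, n = 6) and 10.1 ± 4.97 CPM in CS (SD, n = 5), log2 -0.82 (SE 0.33, edgeR adjusted p = 0.999). The call is lost in the fit blocked by pig (-0.59) and without CS replicate 1 (-0.50).

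SPTSSB, a small subunit of serine palmitoyltransferase, the enzyme that starts sphingoid base synthesis, was higher on pVAD than in CS in 4 of 5 pigs. The mean was 6.50 ± 2.21 CPM on pVAD (SD, n = 6) and 3.82 ± 1.46 CPM in CS (SD, n = 5), log2 0.76 (SE 0.36, edgeR adjusted p = 0.999). CS replicate 4 was the lowest library at 1.23 CPM, and the call is lost without it (0.54). It is also lost in the fit blocked by pig (0.65), without pVAD replicate 2, 4, 5 or 6 (0.62 to 0.76) and without Baseline replicate 3 or 4 (0.76 and 0.75). All 18 libraries, 2 time points only, and the fits without the 2 libraries of lowest TMM factor or without CS replicates 1 and 4 lose it too.

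By role, the 10 tested carriers, phosphatases and other transporters had no call in any comparison, and neither had the 22 G proteins and regulators or the 6 lysophosphatidic acid and cannabinoid receptors. With at most 2.82% of all genes called in a comparison, no call in lists of this size is not a result about them. ABCG2, an efflux transporter and the most abundant of its list, averaged 104 ± 30.3 CPM in CS (SD, n = 5) and 124 ± 28.5 CPM at Baseline (SD, n = 6). PLCB1, a phospholipase C downstream of Gq, averaged 114 ± 31.3 CPM in CS and 134 ± 41.6 CPM at Baseline, and LPAR1, a receptor of lysophosphatidic acid, 38.6 ± 6.24 CPM in CS and 41.4 ± 9.496 CPM at Baseline. Each of these differences is smaller than the SD of either group.

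The most abundant genes of the ceramide, sphingoid base and sphingomyelin lists were likewise not called. The ceramide synthase CERS6 averaged 69.9 ± 8.78 CPM in CS and 76.1 ± 16.8 CPM at Baseline. KDSR, the second enzyme of sphingoid base synthesis, averaged 81.1 ± 10.8 CPM in CS and 74.5 ± 5.16 CPM at Baseline. SGMS1, a sphingomyelin synthase, averaged 93.7 ± 21.6 CPM in CS and 77.7 ± 9.02 CPM at Baseline (SD, n = 5 in CS and 6 at Baseline for each of the 3 genes). Their log2 changes were -0.12 (SE 0.18), 0.12 (SE 0.14) and 0.27 (SE 0.16). For pVAD vs. CS the log2 changes of these 6 abundant genes lay between -0.23 (SGMS1) and 0.31 (PLCB1).

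**Figure D5:**
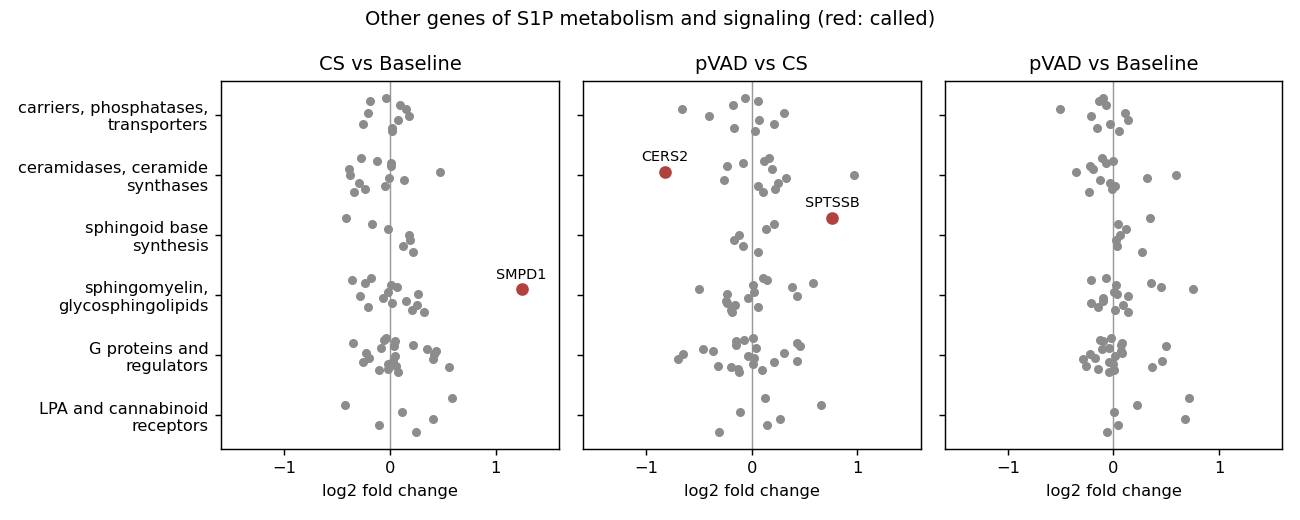
Fitted log2 fold changes (x axis, the time point named first over the second) of the 74 tested genes of S1P metabolism and signaling other than the 9, 1 point per gene and grouped by role, with called genes in red. Only SMPD1 in CS vs. Baseline (1.25) and CERS2 (-0.82) and SPTSSB (0.76) in pVAD vs. CS are called, and the points of each list lie on both sides of 0 except those of sphingoid base synthesis in pVAD vs. Baseline, which are all above it.

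Of the 9 gene spans, 4 overlap another annotated gene in RefSeq Sscrofa11.1: S1PR3 lies with SHC3, SGPL1 with PCBD1, SPNS2 with MYBBP1A, and S1PR1 with a long non-coding RNA. Whether the counting used strand is not given in the sources used here, so reads of such partners may not be fully separated. The part of these partners in the values of the S1P genes was not tested. SHC3, a signaling adaptor, averaged 42.5 ± 2.19 CPM in CS (SD, n = 5) and 43.5 ± 10.8 CPM at Baseline (SD, n = 6), log2 -0.03 (SE 0.17), and pVAD vs. CS was 0.08 (SE 0.17). PCBD1, an enzyme of tetrahydrobiopterin recycling, averaged 8.68 ± 3.23 CPM in CS and 5.78 ± 1.72 CPM at Baseline (SD, same n), log2 0.58 (SE 0.30), and pVAD vs. CS was -0.09 (SE 0.30). MYBBP1A, a nucleolar protein, averaged 12.8 ± 4.23 CPM in CS and 10.7 ± 4.98 CPM at Baseline (SD, same n), log2 0.25 (SE 0.35), and pVAD vs. CS was -0.17 (SE 0.35).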

How the data were processed

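The authors sequenced serum RNA from 100 ng of total RNA per library with a low-input kit. Per the labels and the study's methods, reads were trimmed with Trim Galore 0.4.4, aligned with STAR 2.4.2a and counted per Ensembl gene in R 3.6.0. The genome build and strand setting are not given in the sources used here. The deposited table holds counts of reads for each gene, not normalized by the authors. Groups come from the labels, pigs from the authors' sample sheet.

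From these counts, genes with at least 5 reads in total over 17 libraries entered a single fit in R 4.3.3 with edgeR 4.0.16 (TMM factors, quasi-likelihood test, two-sided, time point as the only term). Adjusted p values are Benjamini-Hochberg over all 26146 genes. For log2 CPM a prior count of 2 was used. Floors are 3 reads and intervals have a confidence level of 95%. The script was tested on simulated data. The library the study set aside, CS replicate 6, was not used.

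The 9 genes and the lists were chosen with earlier results of these data known. Named beside them are called genes of the lists, the most abundant gene of each list and the 5 genes most like S1PR3 in r. SHC3, PCBD1, MYBBP1A and the called markers were named after their positions or values were seen.

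With each gene centered on its time point, the median r was 0.135 between libraries of the same pig (16 pairs, -0.249 to 0.604). Between different pigs it was -0.0205 (80 pairs, -0.511 to 0.404), and the ranges overlap widely. The pairing rests on the sample sheet, since the same animals were bled at each time point. Since the study's methods do not say whether the pig was a term, the block is an alternative.

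Alternatives were DESeq2 1.42.0, RLE size factors, other filters, all 18 libraries, 2 time points only, the pig as a block, other call rules, library sizes without mitochondrial and ribosomal RNA, and each library left out in turn. Fits without the 2 libraries of lowest TMM factor, and without CS replicates 1 and 4, were added after seeing the data.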

Additional observations from a re-analysis of the deposited data

Results flagged for a closer look

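In 54 groups of 5 or 6 libraries examined, 7 had a library far from the others by the Dixon criterion. For independent groups that criterion gives about 1 in 20. These groups share libraries and hold genes named for their values, so nothing is read from the number found. Among the S1P genes, S1PR2 in pVAD replicate 2 stood at 10.96 CPM against a next highest of 5.83 CPM. S1PR3 in pVAD replicate 3 stood at 8.83 CPM against 6.68 CPM, and without that library the pVAD vs. CS change of S1PR3 is 0.56. S1PR4 in CS replicate 4 stood at 9.79 CPM against 1.79 CPM, and SPHK1 in CS replicate 1 at 15.7 CPM against 5.43 CPM. Among the other named genes, SPTSSB in CS replicate 4 was low at 1.23 CPM against 4.21 CPM, ABCG2 in CS replicate 1 was low at 51.6 CPM against 107 CPM, and CERS6 in pVAD replicate 6 was high at 112 CPM against 78.7 CPM.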

How the results depend on the processing

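Over 27 alternative fits the log2 change of S1PR3 ran from -1.001 to -0.71 for CS vs. Baseline and from 0.56 to 0.86 for pVAD vs. CS, and with the replicate block (pig) it is -0.83 and 0.70. Both comparisons hold the CS libraries that chose the gene, so no stability is read from these ranges or from calls of S1PR3. Genes called, of all tested, without each library in turn number 486 to 1066 for CS vs. Baseline, 388 to 999 for pVAD vs. CS and 180 to 422 for pVAD vs. Baseline. Without CS replicates 1 and 4 together they number 301 for CS vs. Baseline, 239 for pVAD vs. CS and 348 for pVAD vs. Baseline, and filterByExpr leaves 110 for pVAD vs. Baseline. At an adjusted p below 0.05 all genes, list genes and the 9 S1P genes are at 0 calls. Of the 74 list genes, 0 are called for CS vs. Baseline with all 18 libraries, with the block and without CS replicates 1 and 4, and 0 to 1 without each library in turn. For pVAD vs. CS, 1 is called with the block, 0 with all 18 libraries, without the 2 libraries of lowest TMM factor and without CS replicates 1 and 4, and 1 to 4 without each library in turn. For pVAD vs. Baseline it is 0 to 1. Of the 9 S1P genes, DESeq2 calls 2 in CS vs. Baseline (S1PR3 and S1PR1) and 2 in pVAD vs. CS (S1PR3 and SPHK1), all 18 libraries call 0 in pVAD vs. CS, and without each library in turn 1 to 2 and 0 to 3 are called. Fits without CS replicates 1 and 4 hold fewer samples. The cause of the other differences was not tested. With 5 or 6 libraries of a time point, and 0 to 70 reads of S1PR5, moderate differences in the less abundant receptors were not detectable.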
